A study of Mus musculus with 16 samples.

Results

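A panel of 10 genes best known from T cells and natural killer (NK) cells was followed in sorted mouse bone marrow progenitors. The genes were Gzma, Gzmb, Nkg7, Ccl5, Klrd1, Il2rb, Cd3e, Cd3g, Cd7 and Tox, picked by name out of 30176 genes measured. They were chosen with earlier results of these data known, which limits comparisons of the panel with all genes. Each had 1 probe set whose sole gene symbol was that of the gene. The series holds 16 whole-transcript arrays, 4 each of KSL cells (Lin-, c-Kit+, Sca-1+) labelled Camkk2-/-, KSL labelled WT, KL cells (Lin-, c-Kit+, Sca-1-) labelled Camkk2-/- and KL labelled WT. Camkk2-/- mice lack the calcium/calmodulin-dependent kinase kinase CaMKK2 in the germ line, and nothing in the sources used here points to any treatment or to an age for either genotype. The replicates drew on 16 mice per genotype. How many mice made up a replicate, and whether KSL and KL came from the same mice, is not given in the sources used here, so the p-values measure the spread between these arrays.

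Cytotoxic T cells and NK cells kill by releasing granules that hold perforin and granzymes, which are serine proteases. T cells recognise antigen through a receptor whose signal is carried by the CD3 chains, whereas NK cells use germline-encoded receptors such as the CD94 heterodimers, and both lineages depend on interleukin-2 and interleukin-15. Genes of mature lineages can also be transcribed at low level in early multipotent progenitors, before lineage choice, and lineage depletion is meant to take mature T cells out of the sort. The antibodies of the lineage mixture are not listed in the sources used here.

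Before the results, the labels were checked. Camkk2 did not follow the genotype label. It read 7.82, 7.93, 7.14 and 7.14 (log2, replicates 1 to 4) on the null-labelled KSL arrays and 7.98, 8.02, 7.11 and 7.45 on the WT-labelled ones, a difference of -0.13 (SE 0.243, adjusted p = 0.714 from limma). In KL it read 7.83, 7.82, 7.08 and 7.12 under the null label and 7.86, 7.81, 6.89 and 7.48 under the WT label, a difference of -0.05 (SE 0.244, adjusted p = 0.923). In all 4 groups replicates 1 and 2 read higher than replicates 3 and 4, without overlap, and the part of this split by replicate number in the label check was not tested. The sources used here do not state whether the null allele still gives a transcript. A level Camkk2 signal therefore cannot decide whether the labels are right. Kit, which defines both sorted populations, ran from 9.22 to 9.41 on null-labelled and from 9.82 to 10.54 on WT-labelled KSL, and from 9.57 to 9.78 on null-labelled and from 10.20 to 10.46 on WT-labelled KL. Ly6a, which encodes Sca-1, was not analysed here. A call needed a limma adjusted p below 0.05 and a change of 1.5-fold or more. Between KSL and KL, 80 genes (0.265%) were called under the null label and 25 (0.0828%) under the WT label in a fit of all 16 arrays. Between null and WT labels, 1512 genes (5.01%) were called in KSL in a fit of the 8 KSL arrays, and 1205 (3.99%) in KL in a fit of the 8 KL arrays. From these arrays, swapped labels, whether of genotype, of sorted population or of both, and a true genotype effect cannot be told apart. Every direction below, between genotypes or between populations, rests on the labels. Markers of other cells also moved with the genotype label: of 10 erythroid markers 9 were called higher on the null-labelled arrays in KSL and 9 in KL, and of 9 progenitor markers 6 were called lower in each population. Over all genes, the shares called were 1.31% higher and 3.7% lower in KSL, and 1.28% higher and 2.72% lower in KL. The array means of the erythroid markers ran from 9.31 to 9.53 on null-labelled KSL and from 7.39 to 7.60 on WT-labelled KSL (log2), without overlap, and in KL from 8.85 to 9.29 under the null label and from 7.04 to 7.34 under the WT label. Those of the progenitor markers ran from 7.45 to 7.52 on null-labelled KSL and from 8.79 to 9.12 on WT-labelled KSL, and in KL from 7.80 to 8.02 under the null label and from 8.99 to 9.14 under the WT label. Their part in the results below was not tested. In sorted cells measured in bulk, fewer cells of a type and less RNA per cell cannot be told apart.

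The proximal promoters of the 3 granule genes are shown because the calls of these genes differ. On null-labelled arrays Gzma was called lower in KSL, Gzmb was called higher in KL, and Nkg7 was called in neither population. For none of the 3 did the label effect differ between the populations at an adjusted p under 0.05 (limma). The windows run from 250 bases before to 50 bases after a start site of the gene (RefSeq, GRCm38.p6), and 5 of the 10 genes were matched in that table. For Cd3e this start site lies inside the span of the gene. Capitals mark the letters found when searching both strands for the motifs named next, and no matches overlapped in these windows. RUNX factors were searched by their core TGTGGT. For T-box factors the letters were AGGTGTGA and for AP-1 they were TGANTCA. The search for ETS factors used ACAGGAAG. GATA factors were searched as AGATAA, and TCF/LEF factors as CTTTGA. The TATA box was searched as TATAAA.
Gzma, chr13:113100932-113101231, minus strand: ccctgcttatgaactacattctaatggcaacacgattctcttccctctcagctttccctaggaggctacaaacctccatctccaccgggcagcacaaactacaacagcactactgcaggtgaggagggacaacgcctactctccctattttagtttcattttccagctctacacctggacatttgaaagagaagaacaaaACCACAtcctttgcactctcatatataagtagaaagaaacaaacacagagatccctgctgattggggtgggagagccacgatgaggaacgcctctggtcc
Gzmb, chr14:56262285-56262584, minus strand: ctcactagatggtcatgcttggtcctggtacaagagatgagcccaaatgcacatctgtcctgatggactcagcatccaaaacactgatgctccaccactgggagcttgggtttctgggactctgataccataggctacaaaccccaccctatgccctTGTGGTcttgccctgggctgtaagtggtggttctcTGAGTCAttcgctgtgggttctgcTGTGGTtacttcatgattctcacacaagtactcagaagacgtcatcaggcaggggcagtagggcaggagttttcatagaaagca
Nkg7, chr7:43436888-43437187, plus strand: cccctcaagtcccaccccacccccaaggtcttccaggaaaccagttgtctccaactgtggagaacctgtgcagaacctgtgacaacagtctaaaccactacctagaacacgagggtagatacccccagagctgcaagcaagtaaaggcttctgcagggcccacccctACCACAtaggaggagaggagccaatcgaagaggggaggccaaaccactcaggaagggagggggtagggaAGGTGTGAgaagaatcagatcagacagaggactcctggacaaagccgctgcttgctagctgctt
All 3 windows held the RUNX letters, which 16.8% of 32851 RefSeq promoter windows of this length hold. Gzmb held them in 2 places, with the AP-1 letters between (7.81% of windows), and Nkg7 held the T-box letters 14 bases before the start (1.28% of windows). Of the other matched genes, Cd3e held the ETS letters (3.58% of windows) and Cd3g the GATA letters (11.2% of windows). These matches describe the letters and are not evidence of binding.

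Between the genotype labels in KSL, 3 of the 10 genes were called lower on the null-labelled arrays and none higher, where a call needed both a limma adjusted p below 0.05 and a change of 1.5-fold or more. The 3 were Cd7, Klrd1 and Gzma. Over all 30176 genes, 3.7% were called lower and 1.31% higher by this rule. Without the fold minimum 5 of the 10 were lower, with Tox and Ccl5 added, against 10.5% of all genes, and none was higher, against 8.5%. The median log2 difference of the 10 genes was -0.35, and that of all genes was 0.05. In KL, 2 of the 10 genes were called lower, Cd7 and Tox, and Gzmb was called higher, where 2.72% of all genes were called lower and 1.28% higher (3.99% in all). Without the fold minimum 5 were lower in KL (Cd7, Tox, Klrd1, Il2rb and Ccl5) against 8.69% of all genes, and Gzmb was higher, against 7.13%. The median of the 10 genes was -0.16 in KL and that of all genes 0.03.

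**Figure D1:**
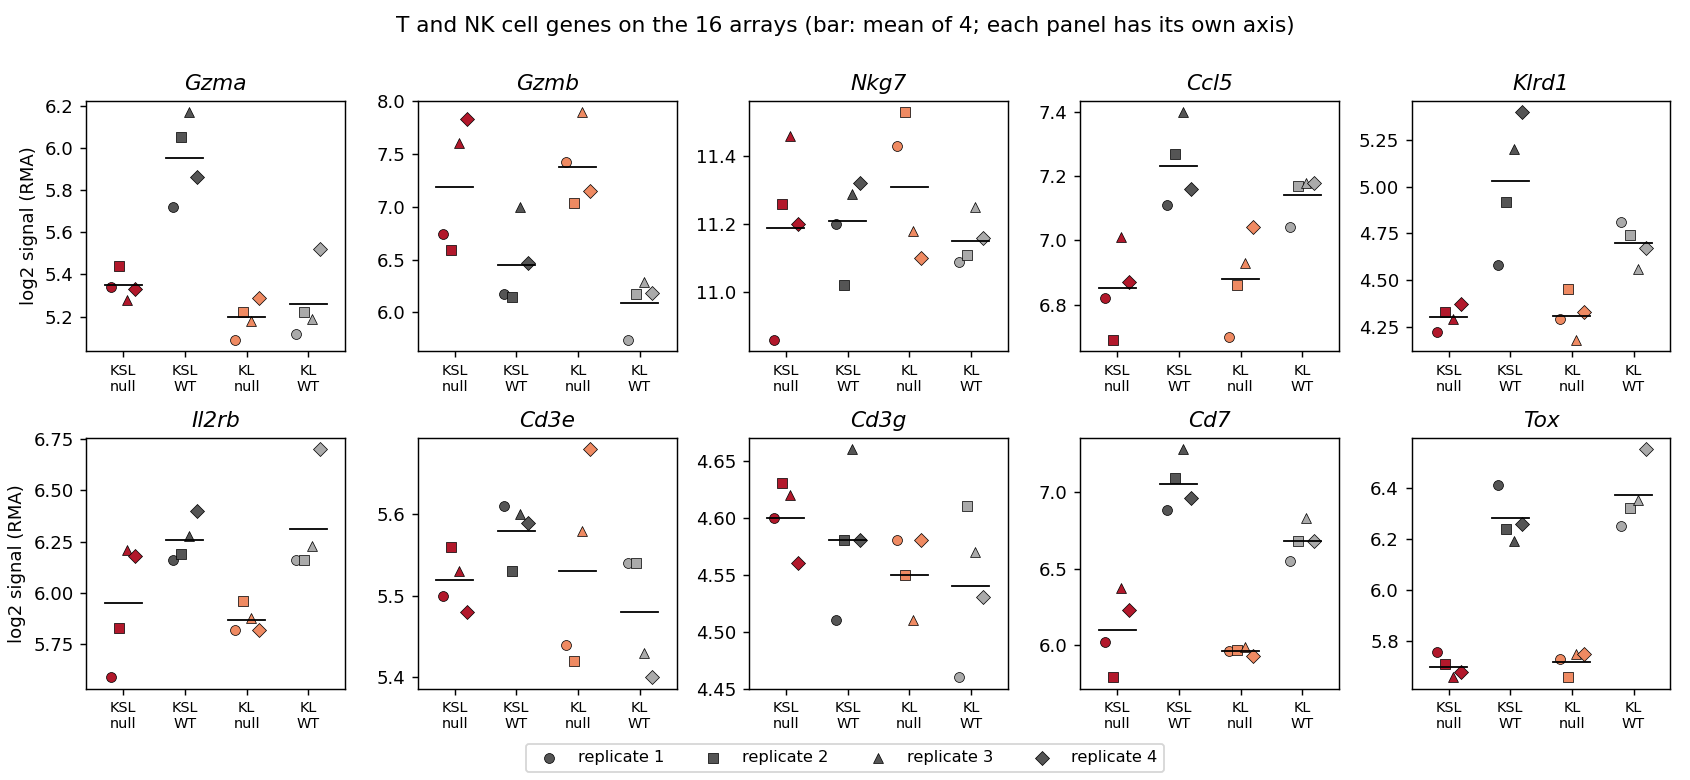
Log2 signal (RMA) of each of the 10 genes on the 16 arrays, with 1 symbol shape per replicate number, a bar at the mean of 4 arrays, and an axis of its own in each panel. Tox and Cd7 separate the null-labelled from the WT-labelled arrays in both populations, Gzmb runs the other way in KL, and Cd3e and Cd3g stay within 5.40 to 5.68 and 4.46 to 4.66.

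Of the granule proteases, Gzma was called lower in KSL and Gzmb higher in KL. Gzma encodes granzyme A, a tryptase-like protease of cytotoxic granules. It read 5.34, 5.44, 5.28 and 5.33 (log2, replicates 1 to 4) on null-labelled KSL, against 5.72, 6.05, 6.17 and 5.86 on WT-labelled KSL. No null-labelled KSL array reached the lowest WT-labelled one, and the fold was 1.52 (log2 difference -0.60, SE 0.0935, adjusted p = 0.00155 from limma). This call lies at the fold minimum: without WT-labelled replicate 3, WT-labelled replicate 2 or null-labelled replicate 3 the difference was -0.53, -0.57 or -0.58 and the call was lost. In KL, Gzma read 5.09 to 5.29 on null-labelled arrays and 5.12 to 5.52 on WT-labelled arrays, which overlapped, with a difference of -0.07 (95% interval -0.26 to 0.12, adjusted p = 0.659).

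Gzmb encodes granzyme B, the protease that cleaves caspases in target cells, and it was the member with the widest range over the 16 arrays. On KL arrays it read 7.43, 7.04, 7.90 and 7.15 under the null label, against 5.74, 6.17, 6.29 and 6.18 under the WT label. All 4 null-labelled KL arrays were above all 4 WT-labelled ones, and Gzmb rose 2.44-fold (log2 difference 1.29, SE 0.181, adjusted p = 0.00106 from limma). On KSL arrays it read 6.74, 6.59, 7.61 and 7.83 under the null label and 6.17, 6.15, 7.00 and 6.47 under the WT label. Replicates 3 and 4 were the higher pair under both labels in KSL, replicate 3 under the WT label overlapped the null-labelled arrays, and the difference of 0.75 (SE 0.292, 95% interval 0.09 to 1.40) did not pass the test (adjusted p = 0.102).

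Nkg7, a membrane protein of the cytotoxic granule, did not divide by label. It was 10.86, 11.26, 11.46 and 11.20 on null-labelled KSL and 11.20, 11.02, 11.29 and 11.32 on WT-labelled KSL, a difference of -0.01 (95% interval -0.28 to 0.25, adjusted p = 0.942 from limma), whose sign turned after quantile normalization (0.14). On KL arrays it was 11.43, 11.53, 11.18 and 11.10 under the null label and 11.09, 11.11, 11.25 and 11.16 under the WT label, a difference of 0.16 (95% interval -0.05 to 0.37, adjusted p = 0.305). These intervals leave out a change of 1.5-fold in either direction in KSL and in KL.

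**Figure D2:**
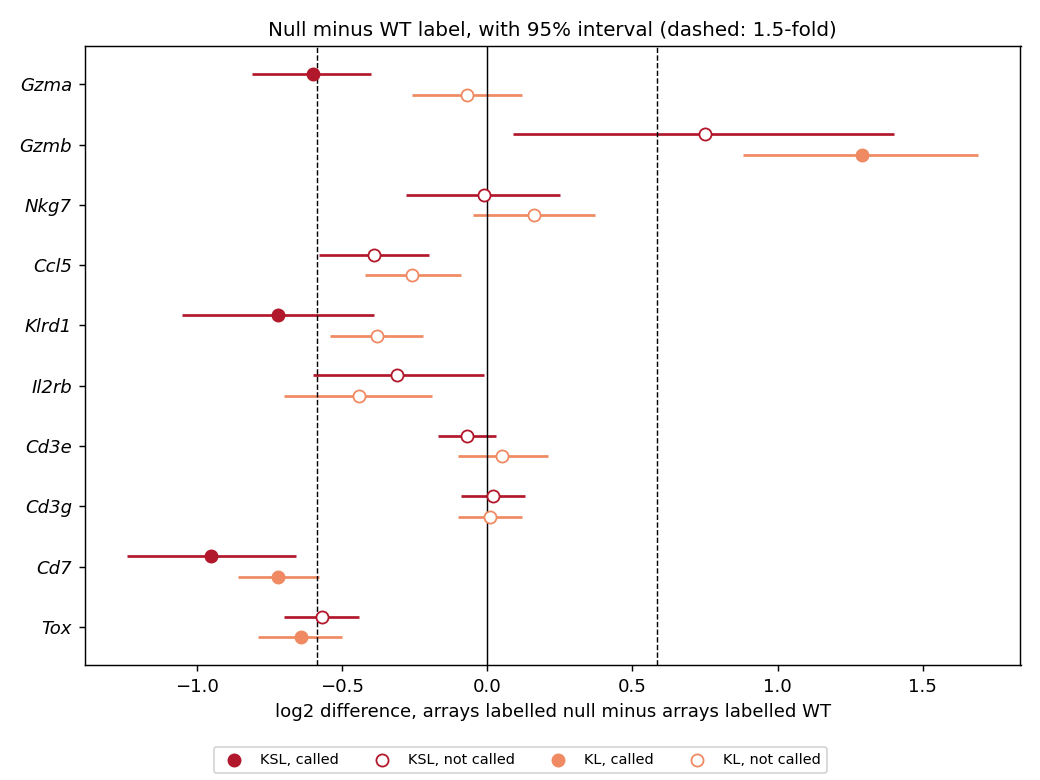
Log2 difference between arrays labelled null and arrays labelled WT for each gene, in KSL and in KL, with the 95% interval from limma. Filled points passed both thresholds, and dashed lines mark a fold of 1.5. Cd7 is filled and left of 0 in both populations, and Gzmb lies right of 0 in both but is filled in KL alone.

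Ccl5, a chemokine that T and NK cells secrete, was slightly lower under the null label. It read 6.82, 6.69, 7.01 and 6.87 on null-labelled KSL and 7.11, 7.27, 7.40 and 7.16 on WT-labelled KSL, a log2 difference of -0.39 (SE 0.0845, adjusted p = 0.0107 from limma). The KSL arrays of the labels did not overlap, but the fold of 1.31 stayed under the minimum. In KL it read 6.70, 6.86, 6.93 and 7.04 under the null label and 7.04, 7.17, 7.18 and 7.18 under the WT label, a difference of -0.26 (SE 0.0731, adjusted p = 0.0392), with null-labelled replicate 4 level with WT-labelled replicate 1.

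Klrd1 encodes CD94, which pairs with NKG2 chains on NK cells. In KSL it read 4.22, 4.33, 4.29 and 4.37 under the null label, against 4.58, 4.92, 5.20 and 5.40 under the WT label. The null-labelled arrays lay close together and the WT-labelled ones were spread over 0.811 log2 units, without overlap, and Klrd1 fell by 0.72 (log2, with SE 0.147 and limma adjusted p = 0.00733). In KL it read 4.29, 4.45, 4.18 and 4.33 under the null label and 4.81, 4.74, 4.56 and 4.67 under the WT label, again without overlap, and the difference of -0.38 (SE 0.0721, adjusted p = 0.00538) was under the fold minimum. RMA values carry no detection call. The 23 background features of the arrays had array medians of 3.87 to 4.16, and the brightest of them averaged 7.76. Klrd1, Gzma, Cd3e and Cd3g averaged less than the median gene over the 16 arrays, and whether their values lie above background was not tested.

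Il2rb is the beta chain that the receptors of interleukin-2 and interleukin-15 share. It read 5.59, 5.83, 6.21 and 6.18 on null-labelled KSL and 6.16, 6.19, 6.28 and 6.40 on WT-labelled KSL, and the arrays overlapped (log2 difference -0.31, SE 0.131, 95% interval -0.60 to -0.01, adjusted p = 0.128 from limma). In KL it read 5.82, 5.96, 5.88 and 5.82 under the null label and 6.16, 6.16, 6.23 and 6.70 under the WT label. The KL arrays did not overlap, and the difference of -0.44 (SE 0.114, adjusted p = 0.0259) stayed under the fold minimum. Of other chains of these receptors, Il2ra and Il15ra, chosen after their values were seen, did not pass both thresholds, and Il2rg was not analysed here. Il2ra differed by -0.04 in KSL and 0.04 in KL, and Il15ra by -0.07 in KSL and -0.20 in KL (adjusted p = 0.616, 0.728, 0.341 and 0.0389).

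Cd3e and Cd3g did not divide by label. They encode the epsilon and gamma chains of CD3, which carry the signal of the T cell receptor. Cd3e read 5.50, 5.56, 5.53 and 5.48 on null-labelled KSL and 5.61, 5.53, 5.60 and 5.59 on WT-labelled KSL, a log2 difference of -0.07 (95% interval -0.17 to 0.03, adjusted p = 0.310 from limma). In KL the Cd3e arrays ran from 5.42 to 5.68 under the null label and from 5.40 to 5.54 under the WT label, a difference of 0.05 (95% interval -0.10 to 0.21). Cd3g ran from 4.56 to 4.63 on null-labelled KSL and from 4.51 to 4.66 on WT-labelled KSL, a difference of 0.02 (95% interval -0.09 to 0.13, adjusted p = 0.792). In KL it ran from 4.51 to 4.58 under the null label and from 4.46 to 4.61 under the WT label (difference 0.01, 95% interval -0.10 to 0.12). The intervals of both genes lie inside a 1.5-fold change of the measured signal in either population, which for probe sets this dim says little of the transcripts. Cd3d, the delta chain, read 5.62, 5.82, 5.64 and 5.54 on null-labelled KSL and 5.54, 6.32, 6.02 and 6.07 on WT-labelled KSL, a difference of -0.33 that did not pass (SE 0.143, adjusted p = 0.129), and Cd247, the zeta chain, differed by -0.12 without overlap (adjusted p = 0.156).

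Cd7, an immunoglobulin-family glycoprotein of early T and NK cells, was the member with the largest difference in KSL. It read 6.02, 5.79, 6.37 and 6.23 under the null label, against 6.88, 7.09, 7.28 and 6.96 under the WT label. The labels were well apart, and Cd7 fell by 0.95 in log2 units, a fold of 1.93 (SE 0.128, adjusted p = 0.000651 from limma). In KL it read 5.96, 5.97, 5.99 and 5.93 under the null label and 6.55, 6.68, 6.83 and 6.68 under the WT label. The null-labelled KL arrays lay within 0.0634 log2 units of each other, below every WT-labelled array, and Cd7 fell by 0.72 (SE 0.0604, adjusted p = 5.64e-05).

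Tox, a nuclear HMG-box factor needed for T cell and NK cell development, separated the labels in both populations. It read 5.76, 5.71, 5.66 and 5.68 on null-labelled KSL and 6.41, 6.24, 6.19 and 6.26 on WT-labelled KSL, a fold of 1.49 just under the minimum (log2 difference -0.57, SE 0.0578, adjusted p = 0.000111 from limma). In KL it read 5.73, 5.66, 5.75 and 5.75 under the null label and 6.25, 6.32, 6.35 and 6.55 under the WT label, where the fold of 1.56 passed (log2 difference -0.64, SE 0.0647, adjusted p = 0.000151). No array crossed between labels in either population. Its paralogs Tox2, Tox3 and Tox4 stood at 0.11, 0.07 and -0.17 in KSL, none past the test.

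Counted over the panel, the null-labelled arrays lay wholly below the WT-labelled ones for 5 genes in KSL (Gzma, Ccl5, Klrd1, Cd7 and Tox) and for 4 in KL (Klrd1, Il2rb, Cd7 and Tox), where 11.8% and 10.2% of all genes did so. They lay wholly above for no member in KSL, against 14.9% of all genes, and for Gzmb in KL, against 10.7%.

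The next comparison asked whether the effect of the genotype label differed between the populations. None of the 10 genes had a difference between the effects at an adjusted p under 0.05 in limma, as was true of all 30176 genes (0% called). Before adjustment, 1 of the 10 had a limma p under 0.05. It was Gzma, whose effect in KSL minus that in KL was -0.54 (SE 0.134, adjusted p = 0.364). For Gzmb the same difference was -0.54 with a wider error (SE 0.378, adjusted p = 0.842). So although Gzmb passed the test in KL and not in KSL, and Gzma in KSL and not in KL, neither gene was shown to differ between the populations after adjustment.

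Between the populations, Gzma stood out among the 10. Under the WT label it was the one member called, higher in KSL than in KL by 0.69 log2 units (SE 0.0944, a fold of 1.61, adjusted p = 0.00752 from limma on all 16 arrays), with every WT-labelled KSL array above every WT-labelled KL array. Of all genes 0.00994% were called higher and 0.0729% lower in this comparison. The call was lost when only the 8 WT-labelled arrays were fitted (adjusted p = 0.197) and with the methods' Student test after adjustment (adjusted p = 0.721), and over its 16 alternatives the adjusted p ran from 0.00146 to 0.721. This contrast and that of the labels in KSL share the 4 WT-labelled KSL arrays, on which Gzma read high. Cd7 also did not overlap between WT-labelled KSL (6.88 to 7.28) and KL (6.55 to 6.83), but its difference of 0.37 had an adjusted p of 0.280. Without overlap, KSL lay above KL for these 2 genes and for 1.44% of all genes, and below KL for none of the 10 and for 1.89% of all genes. Klrd1 differed by 0.33 (adjusted p = 0.481). Under the null label none of the 10 was called between KSL and KL, or had an unadjusted p under 0.05, or was free of overlap, by limma, and the methods' Student test called none either. Of all genes 0.0365% were called higher and 0.229% lower there and 4.49% lay wholly higher and 4.42% wholly lower. The largest null-label differences were those of Gzmb (-0.19, 95% interval -0.75 to 0.38) and Gzma (0.15, 95% interval -0.05 to 0.35).

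**Figure D3:**
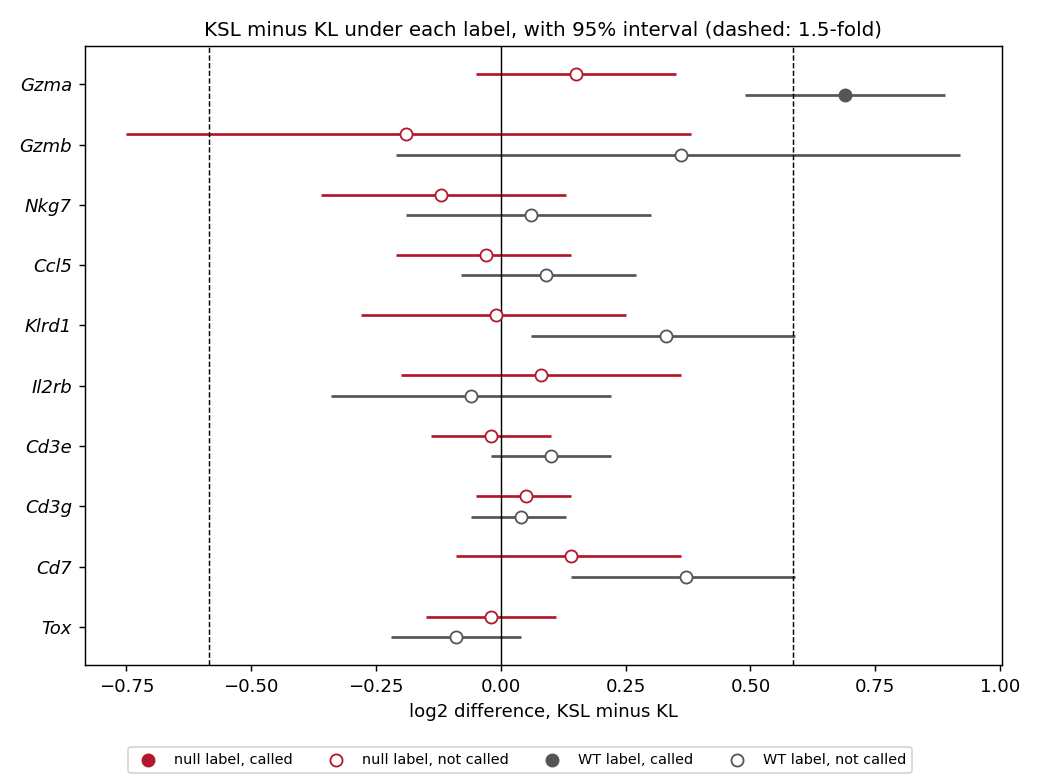
Log2 difference between KSL and KL for each gene under the null label and under the WT label, with the 95% interval from limma. Gzma under the WT label is the filled point, at 0.69, and the interval of Gzmb is the widest under both labels.

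Other genes of T and NK cells were then read from 6 lists, to place the 10 genes among the rest of these pathways. The lists, too, were chosen with earlier results of these data known. Of all genes 3.7% were called lower and 1.31% higher in KSL, and 2.72% lower and 1.28% higher in KL, and the counts of each list stand against these shares. In most lists the median stayed near 0 while a few genes fell together in KSL and KL, and the genes that define mature T and NK cells were mostly among those that did not pass. Some listed genes read near the background medians of 3.87 to 4.16, such as Themis, Klrk1, Fasl and Ifng (means of 3.8, 3.81, 3.52 and 4.11 on null-labelled KSL). For genes this dim a difference near 0 says little of the transcripts. Whether the listed genes lie above background was not tested. Among 21 genes of the T cell receptor complex and its signalling, 3 were called lower in KSL and 3 in KL, none higher, with medians of -0.02 and -0.01. They were the same 3 in both populations: Lat, the scaffold that T cell receptor signals assemble on (-1.24 in KSL, -1.02 in KL), Lcp2, the SLP-76 adaptor (-1.09 and -1.05), and the phosphatase Ptpn22 (-0.90 and -1.03). Lat and Lcp2 also serve in mast cells and platelets. Lat read 7.85, 8.15, 8.14 and 8.38 on null-labelled KSL and 9.35, 9.28, 9.27 and 9.59 on WT-labelled KSL, with no overlap.

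Among 18 NK receptors and adaptors, 3 were called lower and 1 higher in KSL, and 2 lower and 1 higher in KL. Cd244a, the SLAM-family receptor 2B4, read 6.03, 6.07, 6.49 and 6.09 on null-labelled KSL and 7.68, 7.60, 7.50 and 8.03 on WT-labelled KSL, a log2 difference of -1.53 (SE 0.131, adjusted p = 4.31e-05 from limma), and differed by -1.41 in KL. Klrb1c, which encodes the NK1.1 antigen, ran from 4.90 to 5.11 under the null label and from 5.53 to 6.33 under the WT label in KSL, a difference of -1.02 (SE 0.143, adjusted p = 0.000856), and -0.76 in KL. Klrb1b was lower in KSL (-0.62). Fcgr3, an Fc receptor that NK cells share with myeloid cells, was the one that rose, by 1.41 in KSL and 1.96 in KL. The natural cytotoxicity receptor Ncr1, a defining marker of NK cells, ran from 5.16 to 5.58 under the null label and from 5.54 to 6.02 under the WT label in KSL and missed the threshold (difference -0.40, SE 0.125, adjusted p = 0.0532). The array means of this list ran from 5.40 to 5.51 on null-labelled KSL and from 5.53 to 5.69 on WT-labelled KSL, and in KL from 5.44 to 5.50 under the null label and from 5.38 to 5.56 under the WT label.

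Among 20 other cytotoxic granule and effector genes, 3 were called lower in both populations and 1 was higher in KL, with medians of -0.03 and -0.02. The chemokines Ccl3 (-1.40 in KSL, -1.22 in KL) and Ccl4 (-0.91 and -1.04) were lower, as was Ctsw, the cathepsin of cytotoxic cells also called lymphopain (-0.95 and -1.06). Cst7, the inhibitor cystatin F, was the one that rose, by 1.18 in KL, where Gzmb rose as well. Prf1, which encodes perforin and defines the killing granule, read 5.66 to 5.86 on null-labelled KSL and 5.62 to 5.87 on WT-labelled KSL (difference 0.04, adjusted p = 0.690) and differed by -0.04 in KL. The other measured granzymes Gzmc, Gzmf, Gzmg, Gzmk and Gzmm lay between -0.04 and 0.13 in KSL, none past the test. Gzmd and Gzme share a probe set and were not analysed.

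Among 19 transcription factors of T and NK cells, 4 were called lower in KSL and 3 in KL, none higher. Stat4, which relays interleukin-12, differed by -1.41 in KSL and -1.47 in KL, the Ikaros-family factor Ikzf2 by -1.16 and -0.72, and Notch1, the receptor that directs T cell fate, by -0.67 and -0.61. Id2, an inhibitor of E proteins needed by NK cells, was lower in KSL (-0.86). Tbx21 and Eomes, the T-box factors of NK cells, stood at 0.09 and 0.13 in KSL and did not pass (adjusted p = 0.329 and 0.158, limma). These 2 were chosen after their values were seen.

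The interleukin receptors and their relays had a median of -0.34 in KSL and -0.26 in KL against 0.05 and 0.03 for all genes. Of 15 measured, 4 were called lower in KSL and 3 in KL, and none higher. Without the fold minimum 10 were lower in KSL, where 10.5% of all genes were, and 11 in KL, where 8.69% were. Il4ra, the interleukin-4 receptor, read 7.75, 7.35, 7.87 and 7.56 on null-labelled KSL and 9.09, 8.92, 8.85 and 8.94 on WT-labelled KSL, a log2 difference of -1.32 (SE 0.107, adjusted p = 2.90e-05 from limma). Il18rap, a chain of the interleukin-18 receptor, differed by -1.04 in KSL and -1.07 in KL, Il7r by -0.95 and -0.73, and the interleukin-12 receptor chain Il12rb2 by -0.69 in KSL. Among 11 homing receptors, Cd69 was lower in both populations (-0.95 and -1.04) and Ccr2, a receptor of monocytes as well as T cells, was higher in KL (1.00).

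**Figure D4:**
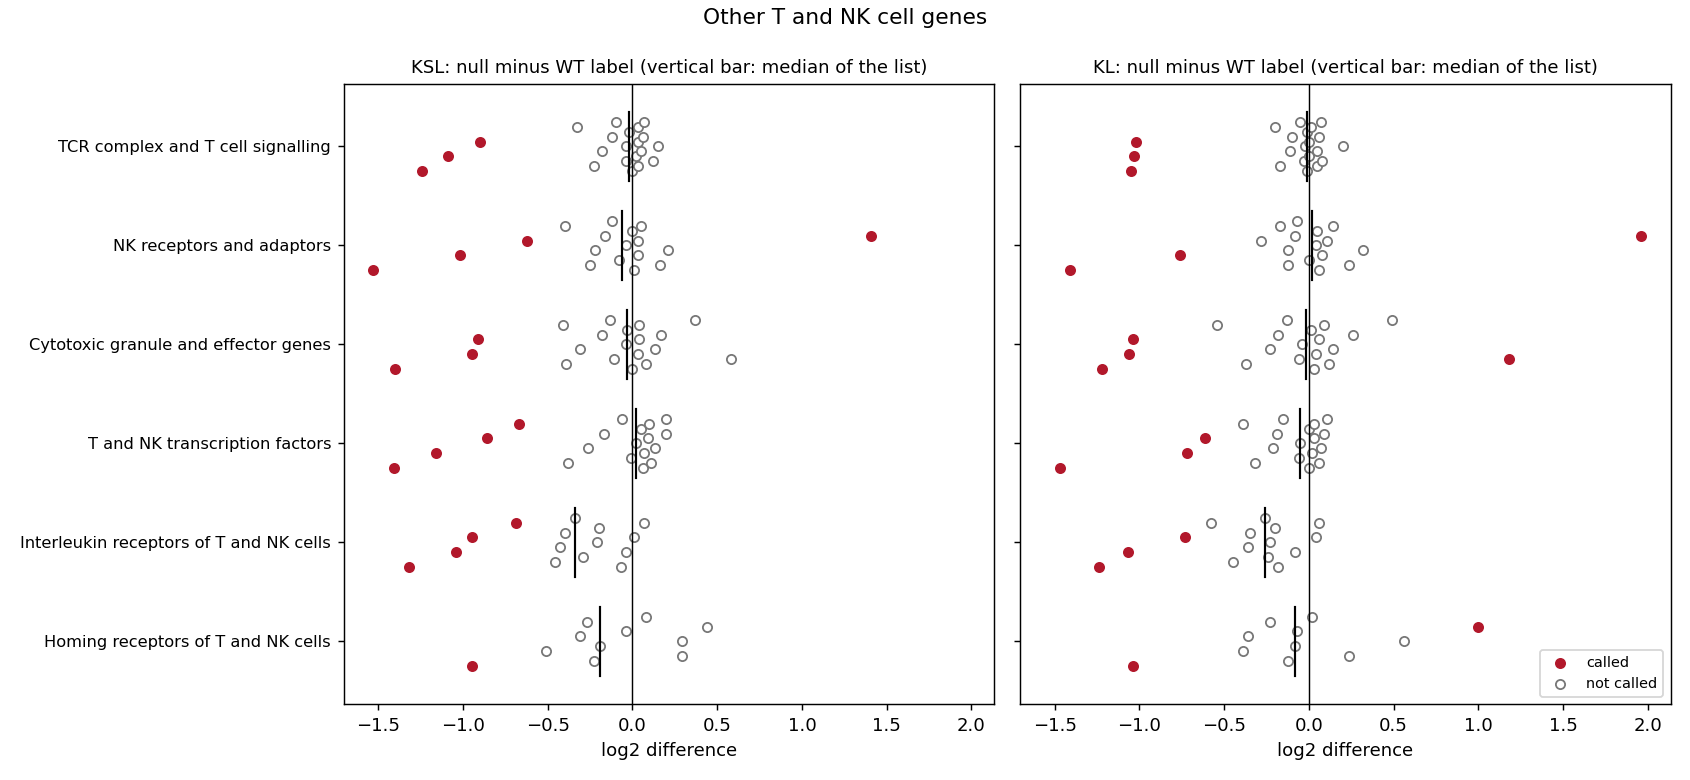
Log2 difference between null and WT labels for each measured gene of the 6 lists, in KSL (left) and KL (right), with a vertical bar at the median of the list. Filled points passed both thresholds. Most genes lie near 0 and the filled ones mostly left of it, with Fcgr3 at 1.41 in KSL and 1.96 in KL as the filled point farthest right.

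Some markers of other lymphoid and myeloid cells were called between the labels, to be read against the same shares of all genes. Of 13 B cell markers 1 was lower in KSL and 1 in KL, of 6 plasma cell markers 2 and 2, and of 9 markers of plasmacytoid dendritic cells 2 in KSL and 0 in KL, with none higher. Of 9 monocyte and macrophage markers 2 were lower and 1 higher in KSL, and 1 lower and 1 higher in KL. Of 10 neutrophil markers 2 were higher in KSL and 1 in KL, led by S100a8 (3.66 and 3.27). The array means of the plasma cell markers ran from 6.33 to 6.43 on null-labelled KSL and from 6.86 to 7.33 on WT-labelled KSL, and those of the B cell markers from 5.48 to 5.49 on null-labelled KSL and from 5.60 to 5.68 on WT-labelled KSL. Among the plasma cell markers Jchain differed most, averaging 5.15 on null-labelled and 7.94 on WT-labelled KSL. Tnfrsf17 differed least, at 5.26 and 5.25. Array means of the plasmacytoid dendritic cell markers ran from 6.57 to 6.58 on null-labelled and from 6.86 to 7.01 on WT-labelled KSL. Among the defining markers of mature T and NK cells, Cd3d, Cd247, Ncr1 and Prf1 passed in neither population, whereas Klrb1c fell in both. The part of these cells in the results was not tested.

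The genes whose pattern was most like that of Gzmb were sought among the 30166 other genes. Over the 16 arrays the highest Pearson correlation was that of Spcs3, a subunit of the signal peptidase (r = 0.936), followed by the predicted genes Gm11625, Gm13311, Gm13772 and Gm4799 (r = 0.931 to 0.918). After subtraction of the group means the highest were Mrps18a (r = 0.897), Klk1b7-ps, Krt10, Erp29 and Haus8 (r = 0.892 to 0.882). These values describe the maximum of a search over arrays that share their group structure, and none of these genes passed both thresholds between the labels. Without the fold minimum, Spcs3 and the predicted genes were higher under the null label in KL, without overlap (limma adjusted p = 0.00136 to 0.0107). In KSL Gm11625, Gm13311 and Gm13772 were so too (adjusted p = 0.0187, 0.0181 and 0.0107). The genes most alike after subtraction did not pass in either population. Among the 10 genes themselves, Ccl5 and Cd7 ran most alike over the 16 arrays (r = 0.91, and r = 0.76 after subtraction of group means), and Gzmb and Tox ran most opposed (r = -0.79, and r = -0.12 after subtraction). After subtraction the most alike pair was Gzmb and Cd7 (r = 0.80, against -0.52 before it). The most opposed pair was then Klrd1 and Tox (r = -0.56, against 0.68 before it).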

How the data were processed

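Total RNA of sorted KSL and KL cells was measured on 16 whole-transcript arrays, 4 per labelled group. The authors deposited log2 values, which the submitters' processing notes credit to RMA in Partek 6.6. Other options are not given in the sources used here. They lay between 2.14 and 15.01, and the medians of the arrays between 5.01 and 5.12. Precision is set by how many arrays there are.

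Of 72688 features, 30638 probe sets named 1 gene, and the 2176 naming several genes were not used. The brightest probe set on average was used for 354 genes with several, which left 30176 genes, without a filter on dim genes. Null and WT labels were compared with limma 3.58.1 in R 4.3.3 (lmFit, eBayes, two-sided) on the 8 arrays of each population, and KSL with KL, and the interaction, on all 16 arrays, with Benjamini-Hochberg adjustment over all genes. A call needed an adjusted p below 0.05 together with a change of 1.5-fold or more. The fit was tested on simulated data. Alternatives were other fold minimums, quantile normalization, median subtraction, the mean of a gene's probe sets, removal of dim genes, trended and robust eBayes, the replicate number as a block, fits on other sets of arrays, the methods' Student test, and leaving out each array. The 10 genes and all lists were chosen with earlier results of these data known. From each list the called genes with the largest differences were named, up to 4 in KSL and 3 in KL, besides the listed defining markers, of which Lck was not analysed here. Promoter windows came from RefSeq (GRCm38.p6).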

Additional observations from a re-analysis of the deposited data

Results flagged for a closer look

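Of 40 sets of 4 arrays (10 genes in 4 groups), 2 held an array far from the other 3, where chance gives about 1 in 20. Both were WT-labelled KL. Ccl5 read 7.04 on replicate 1 and 7.17 on the next array. Il2rb read 6.70 on replicate 4 and 6.23 on the next array.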

How the results depend on the processing

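Numbers of called genes among the 10 that moved by over 1.5 times were these. Lower in KSL, 3 became 1 when dim genes were left out (Gzma, Klrd1, Cd3e and Cd3g were then not tested), 5 with no fold minimum and 0 at a fold of at least 2. It was 4 after quantile normalization or median subtraction and 2 to 4 with single arrays left out. Lower in KL, 2 became 5 with no fold minimum and 0 at a fold of at least 2. The 1 gene higher in WT-labelled KSL than KL, Gzma, became 0 in a fit of the WT-labelled arrays alone, without dim genes, at a fold of at least 2 and in the adjusted Student test.

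With the replicate number as a block, Gzmb passed in KSL (0.75, adjusted p = 0.0104, against 0.102 without the block and 0.0104 to 0.216 over its 17 alternatives), so that 1 gene in place of 0 was higher there. The block changed no other call. The numbers were not taken to pair the arrays, since not every same-numbered pair correlated above 0.1: same-numbered arrays of null and WT labels correlated at -0.006 to 0.159 in KSL and -0.015 to 0.243 in KL (deviations from group means), and 3 of 4 numbers in KSL and 2 of 4 in KL gave the best correlation. Camkk2, however, split replicates 1 and 2 from 3 and 4 in all 4 groups. On null-labelled KL so did Fcgr3 (10.22, 10.19, 9.38 and 9.49), Cst7, S100a8 and Ccl3, all picked after their values were seen, whereas Cd244a did not. On WT-labelled KL, Ccl3 was split in this way, but Fcgr3, Cst7 and S100a8 were not. The check by number matches single numbers, so it cannot show a split of numbers 1 and 2 from 3 and 4. Such a split was not tested over all genes.

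Signs turned only in values that were not called. After quantile normalization these were Nkg7 (0.14) and Cd3g (-0.04) in KSL and Cd3g in KL (-0.02). With single arrays left out, Nkg7 in KSL ran from -0.10 to 0.10, Gzma in KL from -0.11 to 0.02 and Cd3g in KL from -0.02 to 0.03. Tox in KSL passed the fold minimum in 4 of 17 alternatives. Klrd1 and Cd7 in KSL and Gzmb, Cd7 and Tox in KL stayed called in every alternative run at the 1.5-fold minimum, apart from Klrd1 where dim genes were left out and it was not tested. The cause of these changes was not tested beyond the construction of each alternative.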
